A study of Mus musculus with 6 samples.

Results

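The circadian clock genes were examined in RNA sequencing of RAW 264.7 cells, a mouse macrophage-like line labelled wild type and bone marrow macrophage. The members are the 10 gene symbols Arntl, Clock, Per1, Per2, Per3, Cry1, Cry2, Nr1d1, Nr1d2 and Dbp, and all 10 were found among the 21604 gene symbols of the deposited count table. Cells of the LPS group were given lipopolysaccharide (100 ng/mL, 24 h), part of the outer membrane of many bacteria and a strong activator of macrophages. Cells of the other group, called PE-CUR here, were given the same LPS and also PE-CUR (2 mg/mL, 24 h), where PE-CUR stands in the labels for the treatment of a study on Pickering emulsions loaded with curcumin. Each group had 3 libraries of 28530750 to 35276533 counts, so that 1 CPM, which is 1 count in 1000000 of the library's total, was about 30 counts. Untreated cells, empty emulsion and free curcumin are not among the labelled groups, and the labels give neither the hour of harvest nor any step that sets the cells' clocks to a common phase. Every library is a single time point, so no rhythm or phase was measured, and nothing in the labels says that the libraries came from separate cultures.

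The molecular clock is a feedback loop of transcription. BMAL1, the product of Arntl, pairs with CLOCK and switches on the Per, Cry, Nr1d and Dbp genes through E-boxes in their promoters. PER and CRY proteins return to the nucleus and inhibit that pair. REV-ERB alpha and REV-ERB beta, the products of Nr1d1 and Nr1d2, repress Arntl by binding ROR elements, for which the activating ROR receptors compete. Macrophages are known to have such a clock, and it shapes when their inflammatory genes can respond.

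Sequences around annotated starts of the members are given first, as background to the E-boxes and ROR elements named above and not as measured links. They come from RefSeq windows of GRCm38.p6, which reach from 250 bases before an annotated gene start to 50 after it. Of the 10 members 9 matched, with 13 windows. Searched on both strands were the E-box (CACGTG), a variant E-box (CACGTT), the D-box of DBP-like factors (TTATGNAA), 2 forms of the ROR element (TAGGTCA and TAGGTTA) and the cyclic AMP element (TGACGTCA). Capitals mark the letters that matched. Both ROR forms lay in 1 of the 2 windows of Arntl, on its own strand, one of them over the annotated start and the other 31 to 37 bases into the transcript. The stretches around them lie at chr7:113207495-113207521 and chr7:113207531-113207557 on the plus strand.
Arntl, second ROR form: ggtcggaaagTAGGTTAgtggtgcgac
Arntl, ROR element: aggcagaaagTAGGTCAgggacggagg

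The following are the 250 bases before the start of Per1 (chr11:69098699-69098948, plus strand, the first of its 2 windows), Cry1 (chr10:85185055-85185304, minus strand), Nr1d1 (chr11:98775378-98775627, minus strand) and Per3 (chr4:151044666-151044915, minus strand). They are shown as examples of windows that hold an E-box form (Per1, Cry1 and Nr1d1) or a pair of D-boxes (Per3). They were chosen with the changes of these genes known.
Per1: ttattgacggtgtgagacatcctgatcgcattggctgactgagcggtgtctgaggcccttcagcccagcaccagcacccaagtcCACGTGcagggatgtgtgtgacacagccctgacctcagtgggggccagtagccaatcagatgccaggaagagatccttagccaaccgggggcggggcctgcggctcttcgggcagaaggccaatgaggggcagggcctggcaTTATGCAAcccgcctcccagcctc
Cry1: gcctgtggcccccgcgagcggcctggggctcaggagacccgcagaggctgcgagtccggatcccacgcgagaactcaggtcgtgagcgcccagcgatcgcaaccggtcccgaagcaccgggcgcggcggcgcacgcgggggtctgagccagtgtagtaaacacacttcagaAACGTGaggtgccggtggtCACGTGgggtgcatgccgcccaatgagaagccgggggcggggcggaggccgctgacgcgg
Nr1d1: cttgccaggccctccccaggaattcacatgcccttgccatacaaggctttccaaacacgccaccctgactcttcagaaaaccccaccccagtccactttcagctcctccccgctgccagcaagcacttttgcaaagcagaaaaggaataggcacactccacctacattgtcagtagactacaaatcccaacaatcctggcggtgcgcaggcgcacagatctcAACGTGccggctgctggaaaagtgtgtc
Per3: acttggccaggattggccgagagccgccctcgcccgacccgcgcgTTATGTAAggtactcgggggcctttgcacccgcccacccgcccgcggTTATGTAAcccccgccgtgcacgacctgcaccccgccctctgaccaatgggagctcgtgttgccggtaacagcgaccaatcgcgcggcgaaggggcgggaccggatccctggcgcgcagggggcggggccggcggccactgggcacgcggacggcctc

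The E-box stood 166 to 161 bases before the Per1 start and 60 to 55 before the Cry1 start. A variant E-box, read on the opposite strand as AACGTG, lay 28 to 23 bases before the Nr1d1 start, 79 to 74 before that of Cry1 and 166 to 161 before that of Cry2. Per1 also held the D-box form TTATGCAA. Of all 32851 windows in the table, 7.15% hold the E-box, 4.68% the variant E-box, 3.38% the D-box, 2.61% TAGGTCA, 1.44% TAGGTTA and 1.79% the cyclic AMP element. None of these letters were found in the windows of Clock, Nr1d2 and Dbp, which covers these windows alone and not the rest of each gene. A match describes the letters and is not evidence of binding in these cells.

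Among the 10 clock genes, both REV-ERB genes and Cry1 fell in PE-CUR while Arntl and Per1 rose. The other 5 (Clock, Per2, Per3, Cry2 and Dbp) did not pass the test. The changes of the called members were modest, from 1.18-fold to 1.61-fold, and no member reached 2-fold, a size that 19.0% of all tested genes reached. All 10 were tested in edgeR's quasi-likelihood fit of 13014 genes with 3 against 3 libraries, and passing means a Benjamini-Hochberg adjusted p under 0.05 over all of them. In that fit 63.4% of genes were called, 30.8% higher and 32.7% lower. The 5 of 10 called members are thus no more than the background gives, and the clock list as a whole does not stand out by its share of calls. The groups did not overlap in the same 5 members, against 69.0% of all tested genes. The median log2 change (log2 of the fold change, PE-CUR over LPS) of the members was -0.20, beside -0.03 over all tested genes.

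**Figure D1:**
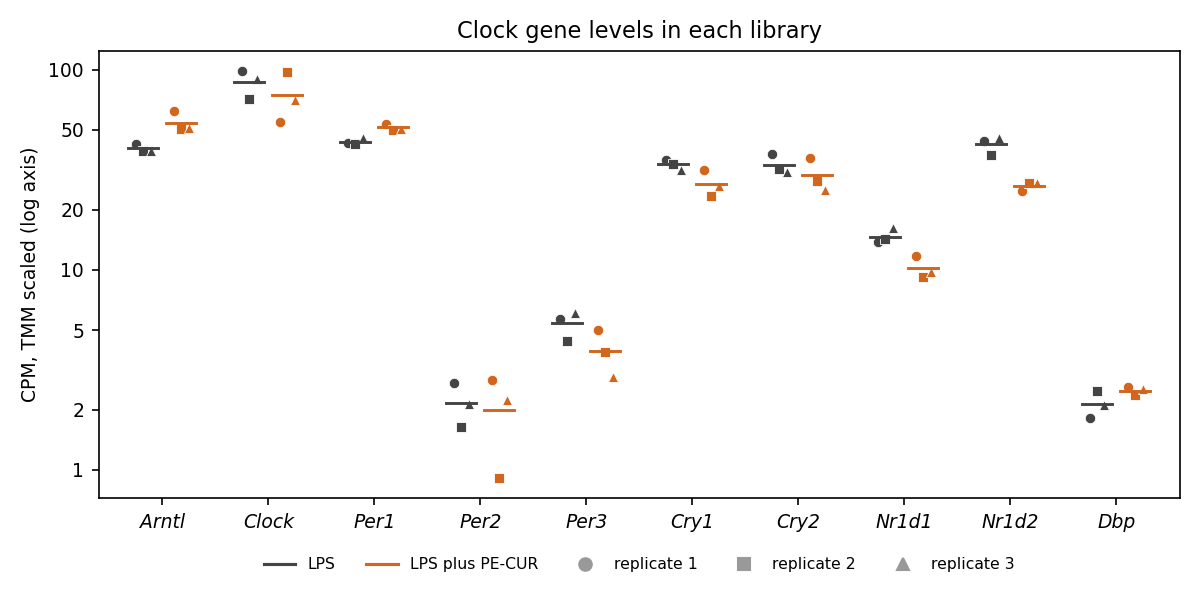
CPM scaled by TMM factors (log axis) of the 10 clock genes in each of the 6 libraries, with a line at the mean of each group and a symbol for each replicate number. Nr1d1 and Nr1d2 lie lower and Arntl higher in every PE-CUR library than in any LPS library, whereas the Clock and Per2 points of the groups mix.

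The activating arm was measured through Arntl and Clock. Arntl (chromosome 7, 113207465 to 113314126, plus strand, GENCODE M21 on GRCm38) stood at 42.6, 39.4 and 39.2 CPM in LPS replicates 1 to 3 and at 61.9, 50.6 and 50.9 CPM in PE-CUR replicates 1 to 3. All 3 treated libraries were above all LPS libraries, and replicate 1 was the highest. The mean rose 1.35-fold from 40.4 ± 1.89 to 54.5 ± 6.41 CPM (SD, n = 3; log2 change 0.43, SE 0.09, edgeR adjusted p = 0.00125). Leaving out any 1 of the 6 libraries kept the call, with log2 changes from 0.36 to 0.53, and on the log2(FPKM + 1) scale the change was 0.26 (limma adjusted p = 0.0320).

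Clock (chromosome 5, 76209868 to 76304792, minus strand), which encodes the partner of BMAL1, behaved differently. Its level was 98.4, 71.3 and 90.3 CPM in LPS replicates 1 to 3 and 54.6, 97.8 and 70.9 CPM in PE-CUR replicates 1 to 3. The groups overlapped almost wholly, and PE-CUR replicate 2 was close to the highest LPS library. The log2 change was -0.22 with an SE of 0.26 (edgeR adjusted p = 0.50), and it lay between -0.42 and -0.01 when single libraries were left out. Its dispersion, the spread between libraries of a group, was above that of 83.1% of tested genes, whereas that of Per1 was above 17.7%. Npas2, which can take the place of Clock, had 0 to 2 counts per library, and Arntl2, a paralog of Arntl, had 6, 8 and 12 counts in LPS and 6, 2 and 1 in PE-CUR. Neither reached the level needed for the test.

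The REV-ERB genes had the most negative log2 changes of the called members. Nr1d2 (chromosome 14, 18204054 to 18239127, minus strand) had 44.0, 37.6 and 45.8 CPM in LPS replicates 1 to 3 and 24.9, 27.1 and 27.1 CPM in PE-CUR replicates 1 to 3. The treated libraries lay close together and all below the lowest LPS library. The mean fell from 42.5 ± 4.32 to 26.4 ± 1.27 CPM, 1.61-fold lower (SD, n = 3; log2 change -0.69, SE 0.09, edgeR adjusted p = 4.54e-05). The same direction was seen for Nr1d1.

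Nr1d1 (chromosome 11, 98767932 to 98775333, minus strand) had 13.7, 14.2 and 16.1 CPM in LPS and 11.7, 9.16 and 9.72 CPM in PE-CUR. The groups were separated, with treated replicate 1 nearest to the LPS values. The mean fell from 14.7 ± 1.28 to 10.2 ± 1.35 CPM, 1.44-fold lower (log2 change -0.52, SE 0.12, edgeR adjusted p = 0.00299). Both calls held in each of the 6 fits without a library. Nr1d1 overlaps Thra, a thyroid hormone receptor gene on the other strand, and shares 263 of its exon bases (8.55%) with it. The strand setting of the counting is not stated in the labels, so reads from the shared bases cannot be assigned with certainty. Thra itself had mean levels of 32.9 ± 0.681 and 33.0 ± 4.83 CPM in LPS and PE-CUR (edgeR adjusted p = 0.969).

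Because a ratio of counts within a library does not depend on how libraries are scaled, the opposite movements can also be read as ratios, given here as a description with no test. There were 3.11, 2.77 and 2.43 Arntl counts per Nr1d1 count in LPS replicates 1 to 3 and 5.28, 5.52 and 5.24 in PE-CUR replicates 1 to 3. The mean ratio went from 2.77 ± 0.337 to 5.35 ± 0.154, and the treated libraries lay closer together, relative to their mean, than in either gene alone. Arntl counts per Nr1d2 count were 0.957 ± 0.0961 in LPS and 2.08 ± 0.353 in PE-CUR. Per1 counts per Nr1d1 count were 2.98 ± 0.167 and 5.08 ± 0.446. The ratio of Arntl to Clock counts was not separated, at 0.433, 0.552 and 0.434 in LPS and 1.13, 0.517 and 0.718 in PE-CUR.

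**Figure D2:**
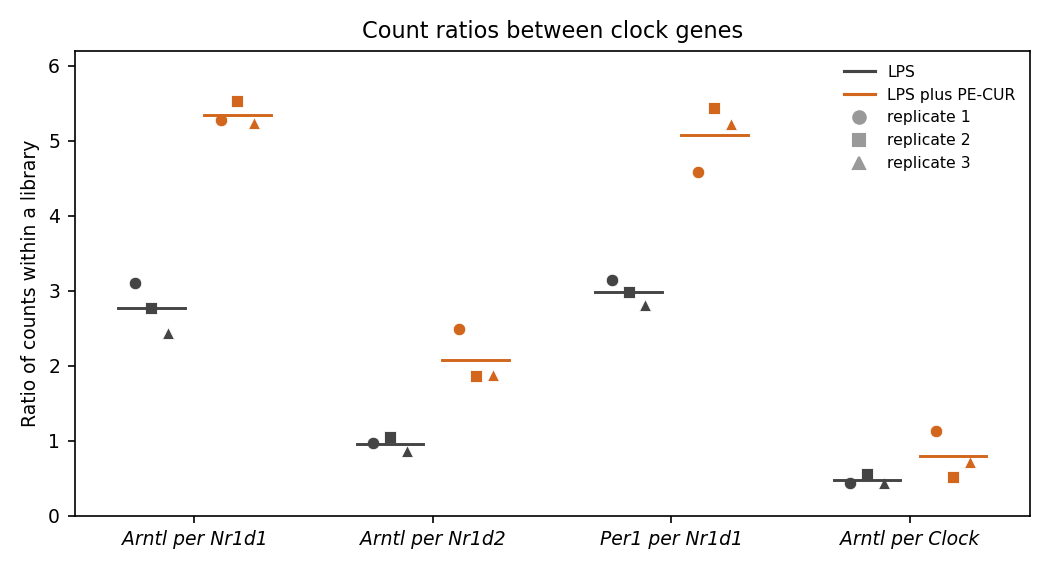
Ratios of the counts of 2 clock genes within each library (linear axis from 0), with a line at the mean of each group. Arntl per Nr1d1 lies between 2.43 and 3.11 in LPS and between 5.24 and 5.52 in PE-CUR, while the groups overlap in Arntl per Clock.

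In the inhibiting arm, the 3 Per genes did not move together. Per1 (chromosome 11, 69095217 to 69109960, plus strand), the family member that responds most readily to outside signals, had 43.1, 42.3 and 45.4 CPM in LPS and 53.7, 49.8 and 50.8 CPM in PE-CUR. The groups were narrow and did not overlap. The mean rose 1.18-fold from 43.6 ± 1.58 to 51.4 ± 2.05 CPM (log2 change 0.24, SE 0.07, edgeR adjusted p = 0.00822). This is a small change, and its call ended in both fits of the FPKM values (limma adjusted p = 0.0821 with a pseudocount of 1 and 0.0862 with 0.1). With library size alone in place of TMM factors the log2 change was 0.18 and only just passed (edgeR adjusted p = 0.0488).

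Per3 (chromosome 4, 151003652 to 151044665, minus strand) is a family member that is dispensable for the core loop in mice. It had 5.68, 4.42 and 6.11 CPM in LPS and 4.99, 3.89 and 2.93 CPM in PE-CUR. The ranges overlapped, and the log2 change of -0.45 (SE 0.21, edgeR adjusted p = 0.0815) did not pass. Without PE-CUR replicate 1, the highest treated library, it was -0.63 (edgeR adjusted p = 0.0151). Per2 (chromosome 1, 91415982 to 91459324, minus strand), a core inhibitor, was scarce, with 89, 54 and 77 counts in LPS and 91, 31 and 62 counts in PE-CUR. Its log2 change of -0.13 (SE 0.38, edgeR adjusted p = 0.780) turned to 0.10 without LPS replicate 1 and to 0.26 without PE-CUR replicate 2. No direction can be given for Per2.

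Cry1 (chromosome 10, 85131700 to 85185064, minus strand), the stronger repressor of the pair, had 35.5, 33.7 and 31.6 CPM in LPS and 31.4, 23.3 and 26.1 CPM in PE-CUR. The groups came within 1 CPM of each other between LPS replicate 3 and treated replicate 1. The mean fell 1.25-fold from 33.6 ± 1.91 to 26.9 ± 4.10 CPM (log2 change -0.32, SE 0.11, edgeR adjusted p = 0.0214). That call ended in 4 of the 6 fits without a library, with log2 changes of -0.24 without LPS replicate 1, -0.28 without LPS replicate 2, -0.18 without PE-CUR replicate 2 and -0.27 without PE-CUR replicate 3 (edgeR adjusted p from 0.0943 to 0.149). It held without LPS replicate 3 (-0.32, edgeR adjusted p = 0.0464) and without PE-CUR replicate 1 (-0.42, edgeR adjusted p = 0.00124).

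Cry2 (chromosome 2, 92403646 to 92434043, minus strand), its paralog, had 37.9, 31.9 and 30.9 CPM in LPS and 36.3, 27.9 and 25.1 CPM in PE-CUR. Replicate 1 was the highest of each group and the groups overlapped. The log2 change was -0.17 (SE 0.14, edgeR adjusted p = 0.330), and -0.31 without PE-CUR replicate 1 (edgeR adjusted p = 0.0152). Cry1 made up 51.1% ± 1.58 of the summed FPKM of both Cry genes in LPS and 48.6% ± 2.91 in PE-CUR, so the balance of the paralogs shifted by less than the ranges of the groups.

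Dbp (chromosome 7, 45705088 to 45710203, plus strand) encodes a transcription factor that acts on D-boxes and is a standard readout of BMAL1 and CLOCK activity. It was scarce, with 59, 81 and 76 counts in LPS and 84, 80 and 70 counts in PE-CUR, or 1.81, 2.47 and 2.10 CPM against 2.59, 2.36 and 2.53 CPM. The groups overlapped, and the log2 change of 0.23 (SE 0.21, edgeR adjusted p = 0.375) did not pass. The interval that this SE gives leaves room for a rise as large as that of Arntl, for no change and for a small fall. Of the exon bases of Dbp, 539 (18.0%) are shared with Sphk2 on the other strand.

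**Figure D3:**
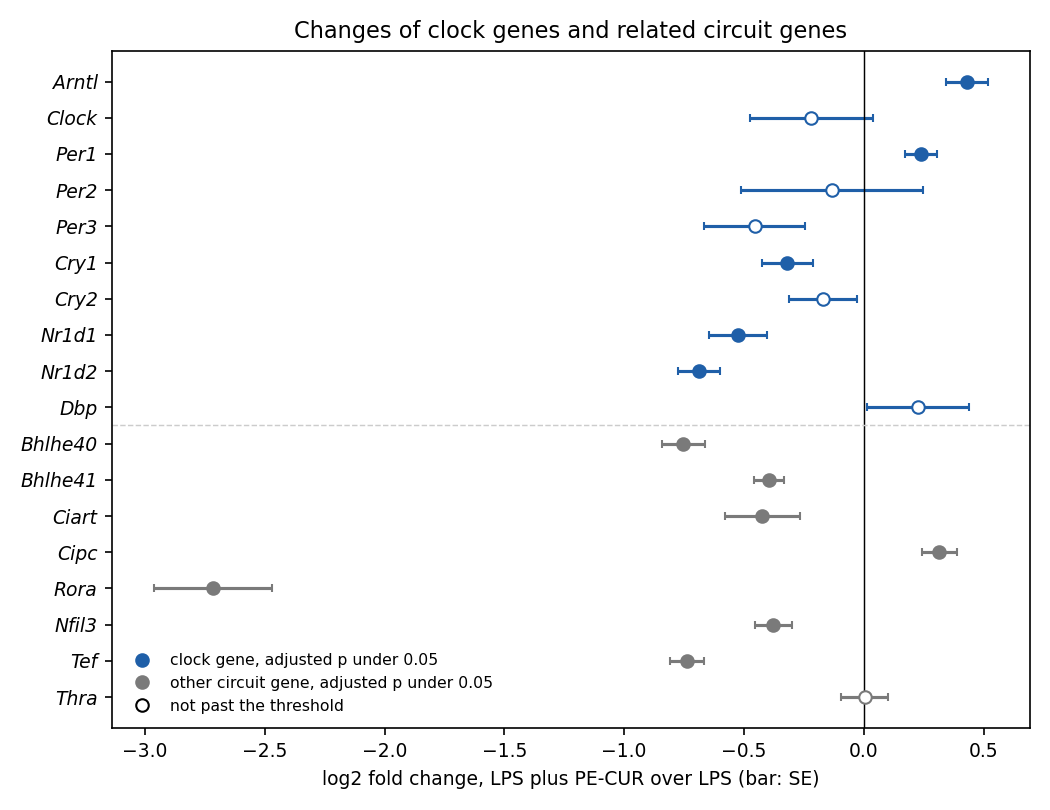
Log2 fold change of PE-CUR (drawn as LPS plus PE-CUR) over LPS with its SE (edgeR, 3 against 3 libraries) for the 10 clock genes, above the dashed line, and for 8 related genes below it; filled points passed the threshold. Nr1d2 and Nr1d1 are the lowest called members at -0.69 and -0.52, and Rora at -2.72 lies far below all members.

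Levels of different genes can be compared only per length, and the deposited FPKM values did this. In LPS the order of mean FPKM was Nr1d2 (8.92 ± 0.949), Clock (8.72 ± 1.42), Cry1 (8.61 ± 0.457), Cry2 (8.26 ± 0.917), Nr1d1 (5.41 ± 0.50), Per1 (5.18 ± 0.218), Arntl (2.14 ± 0.0966), Dbp (0.857 ± 0.130), Per3 (0.809 ± 0.136) and Per2 (0.362 ± 0.0912). The first 4 overlapped with their neighbours, as did Nr1d1 with Per1 and Dbp with Per3. In PE-CUR, Nr1d2 stood at 5.33 ± 0.135 FPKM, below every library of Per1 (5.89 ± 0.378), whereas in LPS it was above all of them. Nr1d1 at 3.63 ± 0.571 FPKM then overlapped with Arntl at 2.78 ± 0.397, which it had not done in LPS. Per1 was 81.6% ± 2.39 of the summed FPKM of the 3 Per genes in LPS and 87.0% ± 2.64 in PE-CUR, with overlapping ranges.

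That order depends on the gene length used, most of all for Arntl. The deposited FPKM values correspond to a length of 19267 bases for Arntl, while its longest coding transcript in GENCODE M21 has 2976 bases in 21 exons. With the lengths of the longest coding transcripts, an alternative chosen after seeing the data, Arntl came to 13.8 ± 0.625 on the FPKM scale in LPS and was first of the 10 genes rather than seventh. For Clock the lengths were close (10130 and 9744 bases), and for Per1 they were 8573 and 4671 bases. With the transcript lengths Nr1d2 was not above Per1 in LPS, at 9.28 ± 0.987 against 9.51 ± 0.399 on that scale. Nr1d1 did not come near Arntl with these lengths. It stood at 5.50 ± 0.508 in LPS and 3.68 ± 0.581 in PE-CUR, where Arntl was at 18.0 ± 2.57. Per2, Per3 and Dbp were the lowest 3 under both lengths. In fits of counts, differences between the groups for a single gene do not depend on its length. In the fits of FPKM with a pseudocount they do, since a longer length gives a smaller FPKM.

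**Figure D4:**
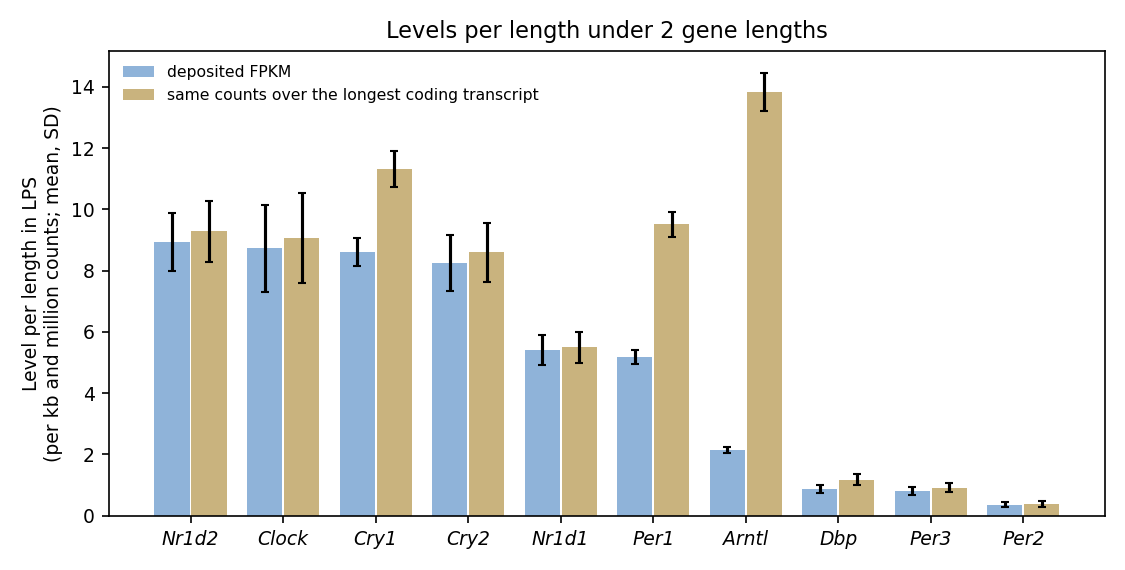
Level per length in LPS (mean and SD of 3 libraries, linear axis from 0) as deposited FPKM and with the same counts divided by the longest coding transcript. Arntl goes from 2.14 to 13.8, while Nr1d2, Clock, Cry2 and Nr1d1 hardly differ between the lengths.

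Transcripts of liver were present in some libraries, and liver is a tissue with strong expression of REV-ERB genes and Dbp. The summed level of 10 hepatocyte markers was 49.3 to 62.5 CPM in the 3 LPS libraries and 76.2 CPM in PE-CUR replicate 3, but 0.155 and 0.0568 CPM in PE-CUR replicates 1 and 2. All 10 had a count in some library, and Alb, the albumin gene, had 1081 to 1711 counts in the former 4 libraries and 1 and 0 in the latter. Nr1d2 stood at 27.1 CPM in the treated library with these transcripts and at 24.9 and 27.1 CPM in those without, and Nr1d1 at 9.72 against 11.7 and 9.16 CPM. With the libraries that hold hepatocyte transcripts alone (3 LPS against PE-CUR replicate 3, added after seeing the data), the log2 change of Nr1d2 was -0.60 and that of Nr1d1 -0.54. Those of the other members were 0.39 for Arntl, 0.27 for Per1, -0.31 for Cry1, -0.83 for Per3 and -0.36 for Cry2. For Clock, Per2 and Dbp they were -0.24, 0.10 and 0.30. That fit assumes that the lone treated library varies like the LPS group, so only log2 changes of the members are given. The 10 macrophage markers summed to 10713 to 11347 CPM in LPS and 8781 to 9857 CPM in PE-CUR, and each had counts. Fibroblast, T cell, B cell, muscle and red cell markers summed to at most 12.1 CPM, a value reached by the fibroblast markers in PE-CUR replicate 2.

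**Figure D5:**
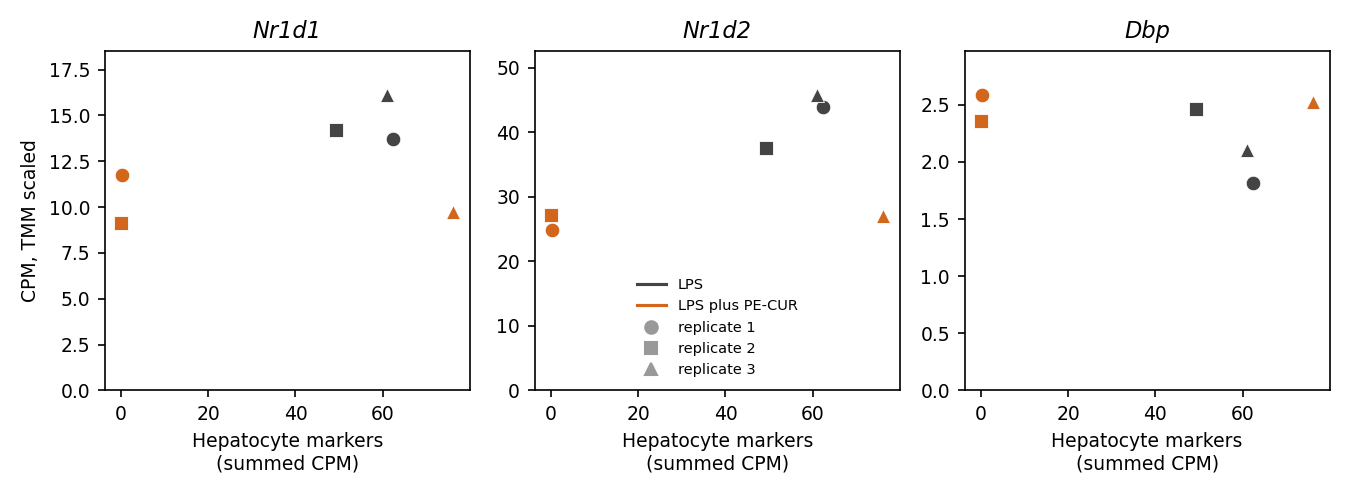
CPM of Nr1d1, Nr1d2 and Dbp (TMM scaled, linear axes from 0) against the summed CPM of 10 hepatocyte markers in each of the 6 libraries. The PE-CUR library at 76.2 CPM of hepatocyte markers has Nr1d1 and Nr1d2 levels like the treated libraries near 0.

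Beyond the members, 64 genes of the circuit were counted in 10 lists, of which 57 were tested, 28 were higher, 16 were lower and 13 did not pass (77.2% called, against 63.4% of all tested genes). Their median log2 change was 0.17. The repressors that bind or inhibit BMAL1 and CLOCK were mostly lower, with 3 of 4 falling and 1 rising. Bhlhe40 and Bhlhe41, which encode DEC proteins that compete for E-boxes, fell from 67.3 ± 8.63 to 39.9 ± 1.33 and from 84.7 ± 2.83 to 64.4 ± 2.82 CPM (edgeR adjusted p = 2.96e-05 and 1.98e-04). Ciart, also called Chrono, fell from 8.91 ± 1.26 to 6.64 ± 1.09 CPM (log2 change -0.42, edgeR adjusted p = 0.0341). The Ciart call ended in 5 of the 6 fits without a library, with log2 changes of -0.44, -0.45 and -0.26 without LPS replicates 1, 2 and 3 and of -0.33 and -0.32 without PE-CUR replicates 2 and 3. Cipc, an inhibitor of CLOCK, rose from 39.8 ± 2.90 to 49.5 ± 1.70 CPM (edgeR adjusted p = 0.00304).

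Rora, which encodes an ROR receptor, an activator that competes with REV-ERB, was also lower. It had 6.70, 7.10 and 8.18 CPM in LPS and 1.17, 1.47 and 0.650 CPM in PE-CUR. It fell 6.57-fold (log2 change -2.72, SE 0.25, edgeR adjusted p = 3.82e-06), with groups far apart. The log2 change was -3.43 with the hepatocyte transcript libraries alone. On the FPKM scale it was -1.02 and -0.16 with pseudocounts of 0.1 and 1, which exceed or come near its FPKM (0.144 ± 0.0159 in LPS). That FPKM corresponds to a length of 51763 bases, while the longest coding transcript of Rora has 10878 bases. Rora had 218, 233 and 296 counts in LPS replicates 1 to 3. Rorb had 1 count in all. Both REV-ERB genes and Rora, whose products bind the ROR element, thus had lower transcript levels in PE-CUR while Arntl was higher.

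Of the factors that act on D-boxes beside Dbp, Tef fell from 40.8 ± 2.05 to 24.4 ± 0.714 CPM (log2 change -0.74, SE 0.07, edgeR adjusted p = 6.28e-06). Nfil3, which encodes the repressor of the same sites, fell from 47.4 ± 1.90 to 36.5 ± 3.02 CPM (log2 change -0.38, SE 0.08, edgeR adjusted p = 0.00133). Hlf, the remaining factor of this kind, had 3, 1 and 3 counts in LPS and 0 in each library with PE-CUR and was not tested.

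Enzymes that set the stability of PER and CRY went both ways. Of 9 tested kinase genes 4 rose, 3 fell and 2 did not pass (77.8% called, against 63.4% of all tested genes). The casein kinase 2 subunits Csnk2a1 and Csnk2a2 rose from 117 to 165 and from 60.5 to 74.6 CPM, and Gsk3a rose from 70.1 to 87.4 CPM, whereas its paralog Gsk3b fell from 161 to 110 CPM and Csnk1a1, casein kinase 1 alpha, from 398 to 331 CPM. With the hepatocyte transcript libraries alone Csnk1a1 did not pass (edgeR adjusted p = 0.0514). Csnk2b stood at 15.1 and 18.2 CPM and passed (edgeR adjusted p = 0.0421), but it did not without LPS replicate 1, LPS replicate 3 or PE-CUR replicate 3 (log2 change 0.31, 0.24 and 0.22), nor with library size alone or a mean of at least 1 CPM (edgeR adjusted p = 0.101 and 0.0667), nor in the fits of the FPKM values (limma adjusted p = 0.0786 and 0.0743). With the hepatocyte transcript libraries alone its log2 change was 0.46. Of 7 tested genes of ubiquitin ligases and a deubiquitinase 3 rose, 1 fell and 3 did not pass (57.1% called). Usp7, which removes ubiquitin from CRY proteins, rose from 159 to 226 CPM, Ddb1 from 518 to 621 CPM and Skp1 from 94.4 to 122 CPM. The log2 change of Ddb1, 0.26, was 0.39 with the hepatocyte transcript libraries alone. Fbxw11, at 152 and 138 CPM, passed as lower (edgeR adjusted p = 0.0435) and did not in any of the 6 fits without a library (log2 change from -0.13 to -0.07), nor with median-ratio factors, without the filter, in DESeq2 or with the hepatocyte transcript libraries alone (log2 change from -0.12 to -0.07).

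Among 14 chromatin cofactors of the clock 9 rose, 0 fell and 5 did not pass. That is 64.3% called, close to the 63.4% of all tested genes, of which 30.8% were higher and 32.7% lower, and the median log2 change of the list was 0.20. Wdr5, a subunit of histone methyltransferase complexes, rose from 53.3 to 90.4 CPM, Ezh2, a histone methyltransferase, from 42.8 to 88.1 CPM, and the RNA-binding partners of PER Sfpq and Nono from 155 to 309 and from 187 to 276 CPM. Of 5 interactors of the PER complex 3 rose and 2 did not pass (60% called, near the same 63.4%). Timeless and Tipin, which also act at replication forks, rose from 19.4 to 79.5 and from 58.3 to 142 CPM, and the helicase gene Dhx9 from 145 to 275 CPM. These genes have roles outside the clock, and the lists do not separate those roles.

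Of 8 output genes 5 rose and 3 fell (100% called, against 63.4% of all tested genes). Noct, the deadenylase-like nocturnin with a rhythm in many tissues, fell from 44.7 ± 3.11 to 24.1 ± 1.21 CPM (edgeR adjusted p = 3.09e-06) and Por, the reductase of P450 enzymes, from 451 to 289 CPM. Wee1, a mitotic kinase gene driven by E-boxes, rose from 9.72 to 21.7 CPM and Cdkn1a from 433 to 521 CPM. Nampt, which makes the precursor of NAD, stood at 160 and 186 CPM and passed as higher, a call that ended in both fits of the FPKM values (limma adjusted p = 0.0595 and 0.0593). The log2 changes of Nampt and Cdkn1a, 0.21 and 0.27, were 0.33 and 0.42 with the hepatocyte transcript libraries alone. Tspan4, at 60.3 and 68.2 CPM, also passed as higher, but not without LPS replicate 3 (log2 change 0.19, edgeR adjusted p = 0.0515), with library size alone (edgeR adjusted p = 0.129) or in the fits of the FPKM values (limma adjusted p = 0.108 and 0.111).

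Genes linked to repression by REV-ERB in macrophages were divided. Of 7 tested 3 rose, 3 fell and 1 did not pass (85.7% called, against 63.4% of all tested genes). Cx3cr1, the fractalkine receptor gene, had 29.3, 27.0 and 20.3 CPM in LPS and 60.4, 59.0 and 67.4 CPM in PE-CUR. The groups were far apart, and the log2 change was 1.29 (SE 0.13, edgeR adjusted p = 3.61e-05). Mmp9 and Ccl5 also rose (log2 change 2.37 and 1.92), while Il6 and Il1b fell (-2.93 and -1.24). Mmp9, Il6 and Il1b were scarce. Mmp9 had 13 to 20 counts in LPS and 66 to 95 in PE-CUR. Il6 had 52 to 86 counts in LPS and 7 to 9 in PE-CUR, and Il1b 56 to 79 and 17 to 30. On the log2(FPKM + 1) scale Mmp9, Il6 and Il1b were at 0.56, -1.14 and -0.52 and passed. Ccl2, named after its values were seen, spread widely, with 13.6 to 27.1 CPM in LPS and 25.6 to 92.9 CPM in PE-CUR, and did not pass (edgeR adjusted p = 0.0639).

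The genes whose pattern over the 6 libraries was most like that of Nr1d2, the member with the smallest p, were Fam91a1, Trim13, Slc30a4, Qk and Ube2q2 (Pearson correlation of log2 CPM 0.998, 0.997, 0.996, 0.996 and 0.996). Of 9797 genes compared, 932 had a correlation above 0.95, and the 6 points fall into the 2 groups, so this likeness is a description of libraries that share a treatment.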

How the data were processed

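The authors deposited whole-number read counts per gene symbol and FPKM values for 6 libraries, with column names equal to the sample titles. Build mm10 and the tools HTSeq, fastp, DESeq2 and SAMtools are named, per the submitters' processing notes. Aligner, annotation and strand setting: not given in the sources used here. The deposited FPKM values equal the counts divided by 1 length per gene and the library total in 100% of 105337 values above 0 (relative tolerance 1e-04), so they are no second measurement.

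The main test was edgeR 4.0.16 in R 4.3.3, with filterByExpr by group (13014 of 21604 genes), TMM factors (0.964 to 1.03), a robust quasi-likelihood fit with the group as its only term, two-sided p, Benjamini-Hochberg adjustment. Levels of members and circuit genes are CPM scaled by the TMM factors. The log2 change is PE-CUR (LPS with PE-CUR) over LPS, and its SE is its size over the root of F. The test was run on simulated counts first, in which few genes were changed, whereas 63.4% of tested genes were called here. That run does not show how the test behaves when so many genes change. Alternatives used limma 3.58.1 and DESeq2 1.42.0. All 10 members were named whatever their result. Direct regulators and Thra were always named, and each circuit list was shown by its passing genes of smallest p, at most 4 of the commoner direction and 2 of the rarer. The rule for likeness took the 5 nearest genes with a mean of at least 5 CPM. Members and lists were chosen with earlier results of these data known. One gene of a circuit list is not reported here. Skp1a was matched by its current symbol Skp1. Positions are from GENCODE M21 and RefSeq GRCm38.p6. P-values measure the spread between these libraries, which may be technical.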

Additional observations from a re-analysis of the deposited data

How the results depend on the processing

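The 5 called members stayed called under each of 7 alternatives in scaling, filter, test or block (median-ratio factors, plain library size, genes unfiltered, a mean of at least 1 CPM, DESeq2, limma-voom, replicate block). They also stayed called without LPS replicate 3 and without PE-CUR replicate 1. Both FPKM fits called 1 member higher in place of 2, since Per1 was lost. Over the fits that left out a library, 4 to 7 members were called, 2 of them higher in each and 2 to 5 lower. All genes called in those fits ran from 7193 of 13195 tested (without LPS replicate 3) to 8315 of 13354 (without PE-CUR replicate 1). Of these genes 3746 to 4163 were higher and 3447 to 4152 lower, so many calls among the members are shared by genes at large. The remaining alternative took the libraries that hold hepatocyte transcripts alone, with a lone treated library, and its log2 changes are given above. Over these 16 alternatives the 10 members kept direction and call in 147 of 160 fits, and the other named genes in 535 of 576. The sign reversed for Per2 among the libraries with hepatocyte transcripts (0.10) and in 2 fits without a library, over which it ranged from -0.45 to 0.26. Thra, near 0 throughout, reversed with plain library size (-0.048), a mean of at least 1 CPM (-0.028), limma-voom (-0.00067), FPKM with pseudocounts of 1 (-0.050) and 0.1 (-0.060), the replicate block (-0.0052) and the libraries with hepatocyte transcripts (-0.12), and ranged from -0.092 to 0.11 without single libraries. The causes were not tested. The labels do not say that replicate numbers pair samples. In their deviations from the group means, same-numbered libraries correlated at -0.10, -0.18 and -0.05, and differently numbered ones at -0.05 to 0.17. With 3 libraries in a group the deviations depend on one another, so these values do not decide whether libraries were paired. With the replicate block 5 members and 7661 genes were called, against 8256 without it, and among the genes named the block ended the calls of Ciart, Csnk2b, Fbxw11 and Tspan4. Per2 and Dbp rest on 31 to 91 counts in a library, and what part of their spread is counting error was not tested.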

Other observations

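Clock varied between libraries of the same group more than most genes did, and the genes most like it were looked up after its values were seen. Over the 6 libraries Mterf3, Rbbp6, Evi5, Gpbp1 and Atad1 had the highest Pearson correlation of log2 CPM with it (0.997, 0.994, 0.989, 0.989 and 0.989), and 87 of 9797 genes were above 0.95, against 932 for Nr1d2. None of these 5 genes passed the test between the groups, with edgeR adjusted p from 0.367 to 0.588 and log2 changes from -0.12 to -0.05. They were picked for likeness to Clock, which did not separate the groups, so this follows from the way they were picked. The number for Nr1d2, which did separate the groups, is for that reason not a like comparison. Per2 was the member with the widest spread, above 96.1% of tested genes in dispersion. Adgre1, the gene of the macrophage marker F4/80, had 2525 to 3274 counts in LPS and 686 to 1003 in PE-CUR, beside 27661 to 30158 and 32521 to 42708 counts of Csf1r.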
